A study of Mus musculus with 16 samples.

Results

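The genes described here are the 3 D-type cyclins (Ccnd1, Ccnd2 and Ccnd3), the 2 kinases they bind (Cdk4 and Cdk6) and 5 inhibitors of cyclin-dependent kinases (Cdkn1a, Cdkn1b, Cdkn1c, Cdkn2c and Cdkn2d). They were taken by symbol, whatever their values, and make up 10 of the 53342 genes in the deposited tables. D cyclins are made when growth factors signal to a cell, bind CDK4 or CDK6, and start the phosphorylation of the retinoblastoma protein that frees E2F factors and lets a cell leave G1. The INK4 inhibitors (p18, made from Cdkn2c, and p19, made from Cdkn2d) bind CDK4 and CDK6 alone, whereas the CIP/KIP inhibitors (p21 from Cdkn1a, p27 from Cdkn1b and p57 from Cdkn1c) bind several cyclin and kinase pairs. In blood-forming stem cells, which are mostly quiescent, this set is known for its part in holding cells out of the cycle and in the return to division after injury.

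RNA was sequenced from LSK cells of mouse bone marrow, the Lineage-negative, Sca1-positive and c-Kit-positive cells that hold stem cells and multipotent progenitors. The mice were Gata2 +9.5(Ets)-/- (called mutant here; per the series title, an Ets C>T transition at the Gata2 +9.5 site, homozygous as the label is written) or WT, all on a C57BL/6J background and 8 to 14 weeks old. They received the antimetabolite 5-fluorouracil (5-FU), which is toxic to cycling cells, at 250 mg/kg, or PBS, and marrow was taken 10 days later. There were 3 mutant libraries after 5-FU, 3 WT libraries after 5-FU, 5 mutant libraries after PBS and 5 WT libraries after PBS, each from 3000 to 10000 sorted cells. Whether replicates came from separate mice is not in the labels, so p-values measure only how these samples vary, which may be technical.

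Each library held between 19.37 and 28.88 counts in units of 1000000. The gate's own genes Kit and Ly6a (Sca1) were read in every library, at 95.5 CPM or more for Kit and 114 CPM or more for Ly6a; CPM here is the count per 1000000 after TMM scaling of the library size. Of 5 antigens listed for the lineage gate, Cd3e and Cd8a were at 0 in all 6 of the 5-FU libraries and at most 1.25 and 0.899 CPM in PBS libraries. Cd4 reached at most 0.273 CPM in 5-FU libraries and 6.35 CPM in PBS libraries, and Cd5 at most 0.506 CPM in 5-FU libraries and 2.5 CPM in PBS libraries. Ptprc, which encodes CD45 (its B220 form is the antigen, and other blood cells make other forms), was read at 122 to 247 CPM in all libraries. Immunoglobulin genes nevertheless took 5.689 to 26.566% of the counts in mutant 5-FU libraries, 0.039 to 0.332% in WT 5-FU libraries, 3.668 to 50.168% in mutant PBS libraries and 6.373 to 44.243% in WT PBS libraries. In such bulk samples, fewer cells of a type and less RNA per cell cannot be told apart.

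All 10 genes passed the filter on low counts, as did 16482 of the 53342 genes. Levels of different genes were set side by side in the deposited TPM, which is scaled to transcript length. Cdk4 had the highest mean over the 16 libraries, 763 TPM, and was above the next gene, Ccnd2 (327 TPM), in 13 of 16 libraries. Ccnd2 in turn was above Ccnd3 (183 TPM) in 14 of 16 libraries, and Ccnd3 was above Cdk6 in all 16. Ccnd2 and Ccnd3 thus supplied most of the D cyclin message, and Ccnd1 averaged 14.4 TPM. Cdk6 (58 TPM) and Cdkn2d (57.3 TPM) had nearly equal means, and Cdk6 was the higher of the pair in 4 of 16 libraries. Among the inhibitors Cdkn2d led, followed by Cdkn2c (23.8 TPM), Cdkn1c (15.2 TPM), Cdkn1a (14.3 TPM) and Cdkn1b (2.58 TPM). Cdkn1c, Ccnd1 and Cdkn1a could not be ordered beyond their spread, since Cdkn1c was above Ccnd1 in 10 and Ccnd1 above Cdkn1a in 5 of 16 libraries.

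RefSeq promoter windows of GRCm38.p6 matched 7 of the 10 genes (all but Ccnd1, Ccnd2 and Cdkn1c), with 10 windows in all. For 3 of these genes a window is shown, without the bases after the start, because these are the kinase with the highest level, its partner kinase, and an inhibitor known as a p53 target. Capitals mark CACGTG, an E-box letter string that MYC and related factors can bind, in the windows of Cdk4 (chr10:127063285-127063534, plus strand) and Cdk6 (chr5:3343643-3343892, plus strand). In the first of the windows of Cdkn1a (chr17:29090729-29090978, plus strand) capitals mark CATGNNNNNNCATG, a pair of p53 half-site cores.
Cdk4: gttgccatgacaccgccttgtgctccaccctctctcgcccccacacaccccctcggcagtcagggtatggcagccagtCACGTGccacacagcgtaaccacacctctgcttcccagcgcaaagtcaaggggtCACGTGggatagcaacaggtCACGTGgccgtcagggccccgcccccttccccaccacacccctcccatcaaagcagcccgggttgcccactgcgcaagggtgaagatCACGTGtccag
Cdk6: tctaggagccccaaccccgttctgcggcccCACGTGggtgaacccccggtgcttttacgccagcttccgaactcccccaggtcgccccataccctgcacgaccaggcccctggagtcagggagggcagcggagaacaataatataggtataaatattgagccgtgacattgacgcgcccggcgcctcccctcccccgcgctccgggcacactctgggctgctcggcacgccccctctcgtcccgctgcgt
Cdkn1a: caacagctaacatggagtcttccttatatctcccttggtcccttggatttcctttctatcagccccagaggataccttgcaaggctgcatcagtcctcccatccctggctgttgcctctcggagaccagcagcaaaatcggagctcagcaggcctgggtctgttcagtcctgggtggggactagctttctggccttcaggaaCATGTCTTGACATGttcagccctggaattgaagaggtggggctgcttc

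The Cdk4 window held 4 matches to CACGTG, beginning 172, 118, 98 and 11 bases before the start, and the Cdk6 window held 1, beginning 220 bases before it. Of 32851 mouse promoter windows of 250 bases, 6.02% held at least 1 match and 7 windows (0.0213%) held 4 or more; CACGTG reads the same on both strands. CATGNNNNNNCATG, which also reads the same on both strands, stood in 0.49% of the windows. The string AGATAA, one that the GATA factors can bind, was searched on both strands and was in 0 of the 10 windows of these genes and in 9.99% of all windows. The motifs were chosen after the sequences had been seen, and a match is a description of letters, not a site.

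In edgeR's quasi-likelihood test the D cyclins held the differences that passed the threshold. After 5-FU, WT LSK cells had less Ccnd2 and more Ccnd1 than WT cells after PBS (on the log2(TPM + 1) scale the Ccnd2 difference had the opposite sign, 0.12, or -0.89 relative to the median of all genes). Ccnd2 (ENSMUSG00000000184, chr6:127125162-127152193, minus strand; GRCm38, as are all gene positions here) encodes cyclin D2. Its CPM were 393, 254 and 208 in mutant 5-FU libraries, 155, 174 and 151 in WT 5-FU libraries, 367, 339, 467, 345 and 306 in mutant PBS libraries, and 302, 341, 636, 569 and 264 in WT PBS libraries. All 3 WT 5-FU libraries were below all 13 others, and the remaining 3 groups overlapped one another. Ccnd2 fell in WT after 5-FU, to a mean of 160 ± 12.4 CPM (SD, n = 3) against 422 ± 168 CPM after PBS (n = 5), a log2 fold change of -1.40 ± 0.31 (SE; adjusted p = 0.00894, edgeR quasi-likelihood test with Benjamini-Hochberg adjustment over 16482 genes). The mutant means were 285 ± 95.8 CPM after 5-FU and 365 ± 61.1 CPM after PBS, a log2 fold change of -0.35 ± 0.29 (adjusted p = 0.703). The difference between the genotypes' responses was 1.04 ± 0.41 (log2) and missed the threshold (adjusted p = 0.34), so a weaker response in the mutant was not shown.

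Ccnd1 (ENSMUSG00000070348, chr7:144929931-144939925, minus strand) encodes cyclin D1. Its CPM were 29.1, 58.6 and 47.4 in mutant 5-FU libraries, 36.5, 46.8 and 24.8 in WT 5-FU libraries, 27, 28.8, 16.9, 32.9 and 38.8 in mutant PBS libraries, and 13, 24, 16.6, 19.1 and 23.1 in WT PBS libraries. The lowest WT 5-FU library lay just above the highest WT PBS library. Ccnd1 rose in WT after 5-FU by 0.91 ± 0.29 (log2; adjusted p = 0.046, edgeR quasi-likelihood test). In the mutant the log2 fold change was 0.64 ± 0.29 (adjusted p = 0.357), with 2 of the 3 libraries after 5-FU above every library after PBS. The interaction was -0.27 ± 0.42 (adjusted p = 0.805).

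Ccnd3 (ENSMUSG00000034165, chr17:47505051-47599691, plus strand) encodes cyclin D3. It ranged from 214 to 331 CPM in mutant 5-FU libraries, from 246 to 270 CPM in WT 5-FU libraries, from 218 to 281 CPM in mutant PBS libraries and from 181 to 300 CPM in WT PBS libraries, so all 4 groups overlapped. Its log2 fold changes lay between -0.02 and 0.14 over the 5 comparisons, and edgeR's quasi-likelihood test made no call. On log2(TPM + 1) Ccnd3 passed the threshold for 5-FU in WT, at 1.59 (adjusted p = 0.0402, limma), or 0.59 relative to the median of all genes, which stood at 1.01.

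Both calls held with RLE scaling (adjusted p = 0.0104 for Ccnd2 and 0.0395 for Ccnd1) and with TMM factors made without immunoglobulin genes (adjusted p = 0.00868 and 0.0417). Scaled to library size alone, which moved the median of all genes to 0.44 in this comparison, Ccnd2 stood at -0.76 (adjusted p = 0.102) and Ccnd1 at 1.42 (adjusted p = 0.0838), so the Ccnd2 and Ccnd1 calls were both lost. Relative to that median they were at -1.20 and 0.98, against -1.29 and 1.02 with TMM. On log2(TPM + 1), where the median of all genes was 1.01, Ccnd2 was at 0.12, the opposite sign, or -0.89 relative to that median. Ccnd1 was at 2.18 (adjusted p = 0.0321, limma) on log2(TPM + 1), or 1.18 relative to the median. The Ccnd2 call was lost without WT 5-FU replicate 1 (-1.37, adjusted p = 0.0515). The Ccnd1 call was lost without WT 5-FU replicate 1 or 2 (0.91 and 0.68) and without WT PBS replicate 1, 2, 3 or 4 (0.80, 1.00, 0.86 and 0.93), with adjusted p between 0.0542 and 0.241.

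**Figure D1:**
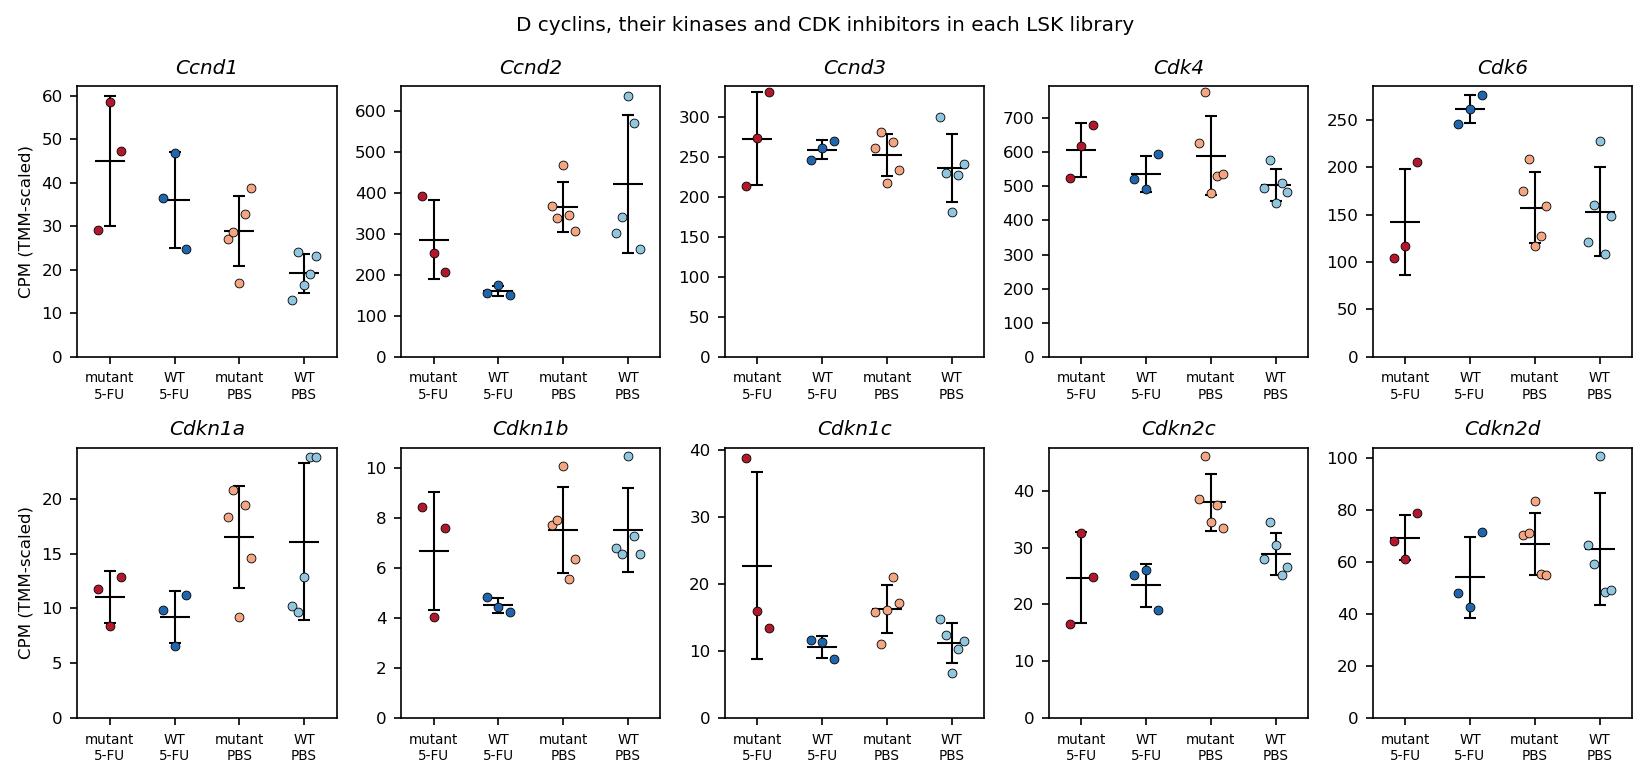
Levels of the 10 genes in each LSK library, in TMM-scaled CPM on linear axes from 0, with the mean and SD of each group (mutant 5-FU and WT 5-FU, n = 3; mutant PBS and WT PBS, n = 5). The WT 5-FU libraries lie lowest for Ccnd2 (151 to 174 CPM) and highest for Cdk6 (246 to 276 CPM). On log2(TPM + 1) the Ccnd2 difference from WT PBS was 0.12, or -0.89 relative to the median of all genes.

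Sample codes in the labels are written with or without a leading zero, and what the codes mark is not stated. Among WT libraries whose code has no leading zero (5-FU replicates 1 to 3, PBS replicates 4 and 5), Ccnd2 was at -1.39 (adjusted p = 0.0293) and Ccnd1 at 0.76 (adjusted p = 0.124). Among those that also share the code prefix (5-FU replicate 3, PBS replicates 4 and 5) the values were -1.46 for Ccnd2 (adjusted p = 0.345) and 0.23 for Ccnd1 (adjusted p = 0.666), with the lone 5-FU library assumed to vary like the others; 1 library against 2 is too few to bear on how stable the calls are. No prefix was shared between genotypes, and all mutant 5-FU codes but no WT 5-FU code had the zero. Code and genotype therefore cannot be told apart after 5-FU.

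Ratios within a library do not move with its scaling factor. Ccnd1 counts were 7.42, 23 and 22.7% of Ccnd2 counts in mutant 5-FU libraries and 23.5, 26.8 and 16.4% in WT 5-FU libraries. After PBS they were 7.36, 8.51, 3.62, 9.53 and 12.7% in mutant libraries and 4.32, 7.03, 2.61, 3.36 and 8.74% in WT libraries. The WT groups did not overlap; in the mutant, 5-FU replicate 1 lay among the PBS libraries. Per transcript length, Ccnd2 made up 61.6 ± 13% of the summed D cyclin TPM in mutant 5-FU libraries (SD, n = 3), 47.4 ± 1.51% in WT 5-FU libraries (n = 3), 69.2 ± 4.38% in mutant PBS libraries (n = 5) and 71.3 ± 10.2% in WT PBS libraries (n = 5). Ccnd3 and Ccnd2 were thus about equal in WT 5-FU libraries, where Ccnd3 held 48.6 ± 2.42%, against 27.4 ± 9.78% in WT PBS libraries. Ccnd1 held 3.07 to 5.02% in WT 5-FU libraries and 0.661 to 2.06% in WT PBS libraries. These shares were described without a test.

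**Figure D2:**
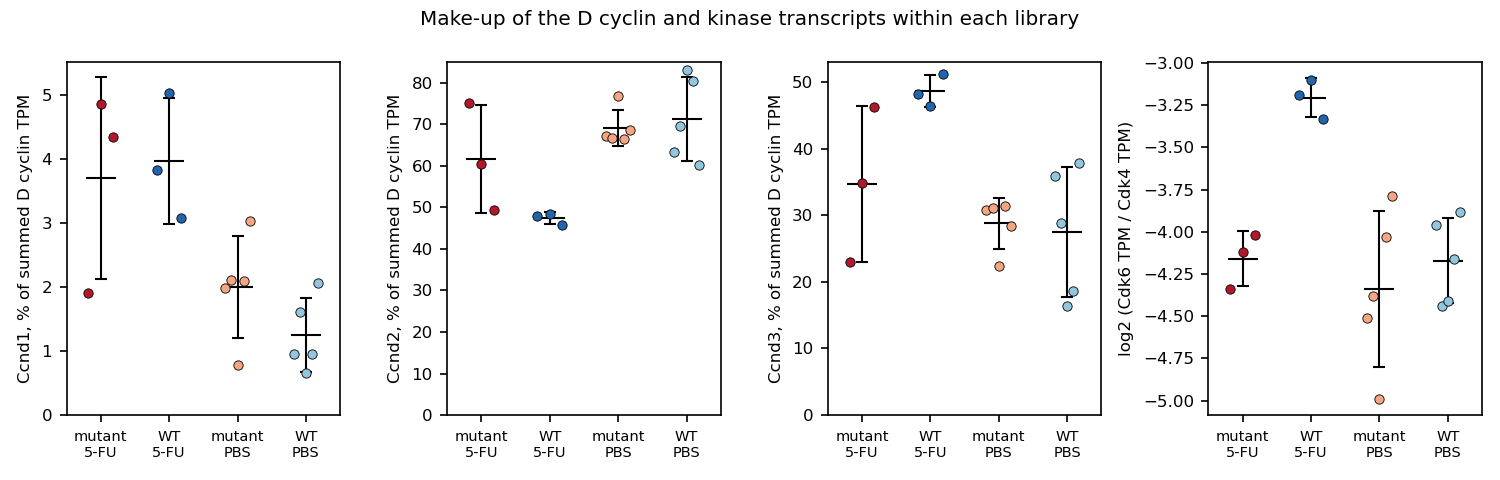
Share of each D cyclin in the summed TPM of Ccnd1, Ccnd2 and Ccnd3 (%, linear axes from 0) and log2 of Cdk6 TPM over Cdk4 TPM, per library, with mean and SD of each group. WT 5-FU libraries hold 45.7 to 48.5% Ccnd2, below every WT PBS library (60.2 to 83.1%). Their log2 kinase ratios of -3.33 to -3.10 lie above those of all other libraries in TPM. In counts they do not: Cdk6 over Cdk4 in WT PBS replicate 3 is above that in WT 5-FU replicates 1 and 3.

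Cdk4 and Cdk6, the partner kinases, differed in how they varied. Cdk4 (ENSMUSG00000006728, chr10:127063534-127067920, plus strand) ranged from 524 to 679 CPM in mutant 5-FU libraries, from 493 to 596 CPM in WT 5-FU libraries, from 481 to 778 CPM in mutant PBS libraries and from 451 to 576 CPM in WT PBS libraries. The groups overlapped, and its log2 fold changes lay between -0.05 and 0.23 with no call in edgeR's quasi-likelihood test. In TPM, however, Cdk4 was at 1366, 1408 and 1417 in WT 5-FU libraries and at most 1152 in the others, and on log2(TPM + 1) its difference for 5-FU in WT was 1.74 (adjusted p = 0.0354, limma), or 0.73 relative to the median of all genes. Cdk6 (ENSMUSG00000040274, chr5:3341485-3531008, plus strand) had 104, 117 and 206 CPM in mutant 5-FU libraries, 246, 262 and 276 CPM in WT 5-FU libraries, 175, 209, 117, 127 and 159 CPM in mutant PBS libraries, and 121, 160, 228, 108 and 149 CPM in WT PBS libraries. The 3 WT 5-FU libraries were the highest of the 16. Even so, the log2 fold change of Cdk6 after 5-FU in WT, 0.77 ± 0.27, narrowly missed the threshold (adjusted p = 0.0621, edgeR quasi-likelihood test). Between genotypes after 5-FU it was -0.88 ± 0.31 (adjusted p = 0.154), with all 3 mutant libraries below all 3 WT libraries. The interaction was -0.92 ± 0.39 (adjusted p = 0.389).

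The Cdk6 result moved across the threshold with the handling of the data. Of 22 other settings for 5-FU in WT, 8 called it and 14 did not. With no library left out, DESeq2 (0.77, adjusted p = 0.0306) and limma-voom with sample weights (0.93, adjusted p = 0.00067) called it. The replicate block, library size alone and log2(TPM + 1) also did. In the WT libraries whose code has no leading zero, the change with 5-FU was 1.02 (adjusted p = 0.0172). Without WT PBS replicate 3, one of the libraries richest in immunoglobulin, it was 0.96 (adjusted p = 0.0257). Relative to Cdk4 in the same library, log2 Cdk6 TPM over Cdk4 TPM was -4.16 ± 0.16 in mutant 5-FU libraries, -3.20 ± 0.12 in WT 5-FU libraries, -4.34 ± 0.46 in mutant PBS libraries and -4.17 ± 0.25 in WT PBS libraries (SD). The deposited effective length of Cdk6 enters these TPM values. It was 3242 to 5857 bases in 14 libraries but 8384 in mutant PBS replicate 3 and 10613 in WT PBS replicate 3, the 2 libraries with immunoglobulin shares above 40%. In counts the kinase ratio did not set the WT 5-FU libraries apart. WT PBS replicate 3 had 2517 counts of Cdk6 and 4970 of Cdk4. That ratio was higher than in WT 5-FU replicate 1 (8116 and 17158) and replicate 3 (7260 and 15671).

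Among the CIP/KIP inhibitors no difference passed the threshold in edgeR's quasi-likelihood test, but other methods made calls for 5-FU in WT. DESeq2 called Cdkn1b (-0.73, adjusted p = 0.0482), and limma-voom with sample weights called Cdkn1a (-0.75, adjusted p = 0.0243) and Cdkn1b (-0.54, adjusted p = 0.031). Cdkn1a (ENSMUSG00000023067, chr17:29090976-29100727, plus strand), the p53 target p21, had 11.8, 8.44 and 12.9 CPM in mutant 5-FU libraries, 9.84, 6.63 and 11.2 CPM in WT 5-FU libraries, 18.3, 20.8, 9.25, 19.4 and 14.6 CPM in mutant PBS libraries, and 10.2, 9.71, 12.9, 23.8 and 23.8 CPM in WT PBS libraries. The WT PBS libraries split into 3 low ones (replicates 1 to 3, code with a zero) and 2 high ones (replicates 4 and 5, without). Over all WT libraries the log2 fold change with 5-FU was -0.81 ± 0.35 (adjusted p = 0.114), and among those with no zero in the code it was -1.38 (adjusted p = 0.0177). In the mutant it was -0.58 ± 0.35 (adjusted p = 0.55).

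Cdkn1b (ENSMUSG00000003031, chr6:134920401-134925513, plus strand), which encodes p27, was the rarest of the 10. Its CPM were 8.46, 4.03 and 7.59 in mutant 5-FU libraries, 4.86, 4.44 and 4.26 in WT 5-FU libraries, 7.71, 7.91, 10.1, 5.56 and 6.38 in mutant PBS libraries, and 6.8, 6.58, 10.5, 7.29 and 6.55 in WT PBS libraries. All WT 5-FU libraries were below all WT PBS libraries, but the log2 fold change of -0.74 ± 0.29 missed the threshold (adjusted p = 0.0888, edgeR quasi-likelihood test). The mutant value for 5-FU was -0.17 ± 0.29 (adjusted p = 0.874).

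Cdkn1c (ENSMUSG00000037664, chr7:143458339-143461050, minus strand), which encodes p57, an inhibitor linked to stem cell quiescence, had 38.7, 16 and 13.5 CPM in mutant 5-FU libraries and 11.7, 11.4 and 8.78 CPM in WT 5-FU libraries. After PBS it had 15.8, 11, 16.1, 21.1 and 17.2 CPM in mutant libraries and 14.8, 12.4, 6.71, 10.3 and 11.5 CPM in WT libraries. After 5-FU every mutant library was above every WT library, with mutant replicate 1 far above the others. The log2 fold change between genotypes there was 1.10 ± 0.37 (adjusted p = 0.14, edgeR quasi-likelihood test), or 0.47 without that library (adjusted p = 0.583), and after PBS it was 0.54 ± 0.29 (adjusted p = 1).

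The INK4 inhibitors gave no call in edgeR's quasi-likelihood test. Cdkn2c (ENSMUSG00000028551, chr4:109660876-109667189, minus strand), which encodes p18, had 16.6, 32.6 and 24.9 CPM in mutant 5-FU libraries, 25.1, 26 and 19 CPM in WT 5-FU libraries, 38.5, 46.1, 34.5, 37.4 and 33.4 CPM in mutant PBS libraries, and 27.9, 34.5, 30.4, 25.2 and 26.6 CPM in WT PBS libraries. In the mutant, all 3 libraries after 5-FU were below all 5 after PBS, at -0.62 ± 0.21 (log2; adjusted p = 0.182). In WT the value was -0.30 ± 0.21 (adjusted p = 0.296). The mutant PBS libraries lay higher than most WT PBS libraries, 4 of 5 being at or above the highest WT value, at a log2 fold change of 0.39 ± 0.18 (unadjusted p = 0.0457, adjusted p = 1, edgeR quasi-likelihood test). Cdkn2d (ENSMUSG00000096472, chr9:21288410-21291407, minus strand), which encodes p19, ranged from 61.4 to 78.8 CPM in mutant 5-FU libraries, from 42.7 to 71.7 CPM in WT 5-FU libraries, from 55.1 to 83.4 CPM in mutant PBS libraries and from 48.7 to 101 CPM in WT PBS libraries. These ranges overlapped, and its log2 fold changes lay between -0.26 and 0.36. For mutant against WT after 5-FU limma-voom called Cdkn2d, at 0.49 (adjusted p = 0.0323). On log2(TPM + 1) it passed for 5-FU in WT, at 1.23 (adjusted p = 0.0398, limma), or 0.22 relative to the median of all genes, the opposite sign to its -0.26 with edgeR. Of the other INK4 genes, Cdkn2a had a mean of 0.19 CPM or less in every group and did not pass the filter. Cdkn2b had means of 0.395, 0.0355, 0.497 and 0.216 CPM in mutant 5-FU, WT 5-FU, mutant PBS and WT PBS libraries, with no call.

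Counted by comparison, after 5-FU in WT 1 of the 10 genes rose and 1 fell, against 14.9% of all genes tested (5.55% higher and 9.31% lower). The share of 2 in 10 was near that background. At an unadjusted p under 0.05 the count was 5 (Ccnd1, Ccnd2, Cdk6, Cdkn1a and Cdkn1b), against 36.9% of all genes. In 4 of the 10, all libraries of the groups lay apart (Ccnd1 and Cdk6 above, Ccnd2 and Cdkn1b below), as they did for 31.8% of all genes. The median log2 fold change of the 10 was -0.17, against -0.11 over all genes.

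For mutant against WT after 5-FU, 0 of the 10 genes and 1.95% of all genes passed the edgeR quasi-likelihood test at an adjusted p under 0.05. At an unadjusted p under 0.05 the count was 3 (Ccnd2 and Cdkn1c higher, Cdk6 lower), against 18.4% of all genes. DESeq2 called 0, and limma-voom with sample weights called 3 (Ccnd2 and Cdkn2d higher, Cdk6 lower). The shares of all genes called by DESeq2 and limma-voom are not given here. Those 3 calls are therefore not read as particular to the 10 genes. The same 3 genes as at the unadjusted p had groups that lay apart, against 39.4% of all genes. The median of the 10 was 0.29, against 0.07 over all genes. Above 0 were 9 of the 10 values, against 8894 of 16482 genes. On log2(TPM + 1), where the median of all genes was below 0, only Ccnd2 (0.05) and Cdkn1c (0.10) stayed above 0.

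Under PBS, mutant against WT gave 0 calls among the 10 genes, against 0.0182% of all genes, and in 0 of the 10 did the groups lie apart, against 0.625%. The unadjusted p was under 0.05 for Ccnd1 (0.59 ± 0.26) and Cdkn2c, 2 of 10, against 3.28% of all genes, and DESeq2 and limma-voom called 0. For 5-FU against PBS in the mutant, 0 of the 10 were called, against 2.2% of all genes. There 2 had an unadjusted p under 0.05 (Ccnd1 and Cdkn2c, against 13.1% of all genes), 1 had groups that lay apart (Cdkn2c, against 9.99%), and DESeq2 and limma-voom called 0. The interaction also gave 0 calls, against 0.589% of all genes. Ccnd2 and Cdk6 had an unadjusted p under 0.05 there, against 10.8% of all genes. DESeq2 called 0 and limma-voom 1 (Cdk6, lower), with no share of all genes called by these methods given beside them. These comparisons share libraries, so their values are not independent of one another.

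**Figure D3:**
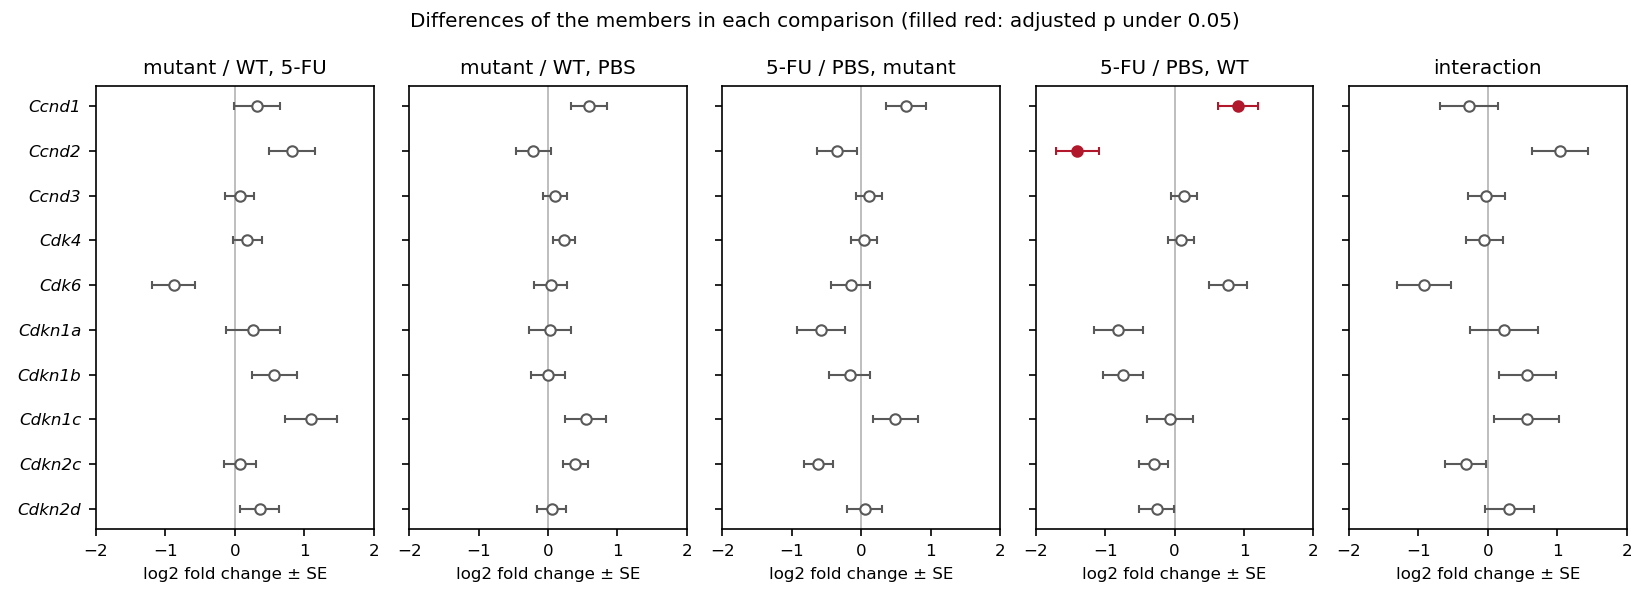
Log2 fold change ± SE of each of the 10 genes in the 5 comparisons (edgeR quasi-likelihood fit over 16 libraries), each panel giving the group named first over the group named after the slash. Filled red points mark an adjusted p under 0.05, which is reached for Ccnd1 (0.91) and Ccnd2 (-1.40) in WT, 5-FU over PBS. On log2(TPM + 1) that Ccnd2 value was 0.12, or -0.89 relative to the median of all genes.

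Markers of other blood cells moved with the same comparison. In WT after 5-FU, 8 of 8 plasma cell markers, 6 of 7 B cell markers, 5 of 7 neutrophil markers, 4 of 6 monocyte and macrophage markers, 5 of 7 T and NK cell markers and 4 of 5 erythroid markers fell, against 9.31% of all genes, while 2 of 4 megakaryocyte markers rose, against 5.55%. The 5 called T and NK markers were low even in WT PBS libraries, with means of 0.452 CPM (Cd3e) to 4.65 CPM (Trbc2). Nkg7, the most abundant of that list, was not called (214 CPM in WT PBS and 169 CPM in WT 5-FU libraries). Of 6 multipotent and stem cell markers 1 rose in WT after 5-FU (Mecom) and 1 fell (Flt3). Of the gate's own 2 genes 0 were called. The summed plasma cell markers ranged from 2268 to 19310 CPM in mutant 5-FU libraries, from 137 to 376 CPM in WT 5-FU libraries, from 1557 to 74104 CPM in mutant PBS libraries and from 3129 to 64787 CPM in WT PBS libraries. Jchain, the joining chain of secreted antibodies, was still read in all WT 5-FU libraries, at 8.54 to 91.5 CPM. With the immunoglobulin share as a covariate, the changes in WT after 5-FU were -0.85 for Ccnd2 (adjusted p = 0.139), 0.38 for Ccnd1 (adjusted p = 0.696) and 0.78 for Cdk6 (adjusted p = 0.295), and 0 of the 10 genes were called. Between genotypes after 5-FU, 6 of 8 plasma cell markers, 3 of 7 B cell markers, 2 of 7 T and NK cell markers, 1 of 6 monocyte and macrophage markers and 1 of 5 erythroid markers were higher in the mutant, against 1.49% of all genes. Lower there were 2 of 6 multipotent and stem cell markers, against 0.461%. Flt3, a receptor of multipotent progenitors, averaged 20.9 CPM in mutant 5-FU libraries and 123 CPM in WT 5-FU libraries, at -2.56 ± 0.29 (log2; adjusted p = 0.00107, edgeR quasi-likelihood test). Cd34, a surface antigen of progenitors, averaged 214 CPM in mutant 5-FU libraries and 682 CPM in WT 5-FU libraries, at -1.67 ± 0.38 (adjusted p = 0.0358). These markers moved in the same comparison as the Cdk6, Ccnd2 and Cdkn1c values above. Without the 2 PBS libraries above 40% immunoglobulin, 3 of the 10 genes were called in WT after 5-FU: Ccnd2 (-1.20), Ccnd1 (0.86) and Cdk6 (0.96). The shares of all genes called with the covariate or without those libraries are not given here, so these counts have no background beside them. The part of these markers in the values of the 10 genes was otherwise not tested.

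**Figure D4:**
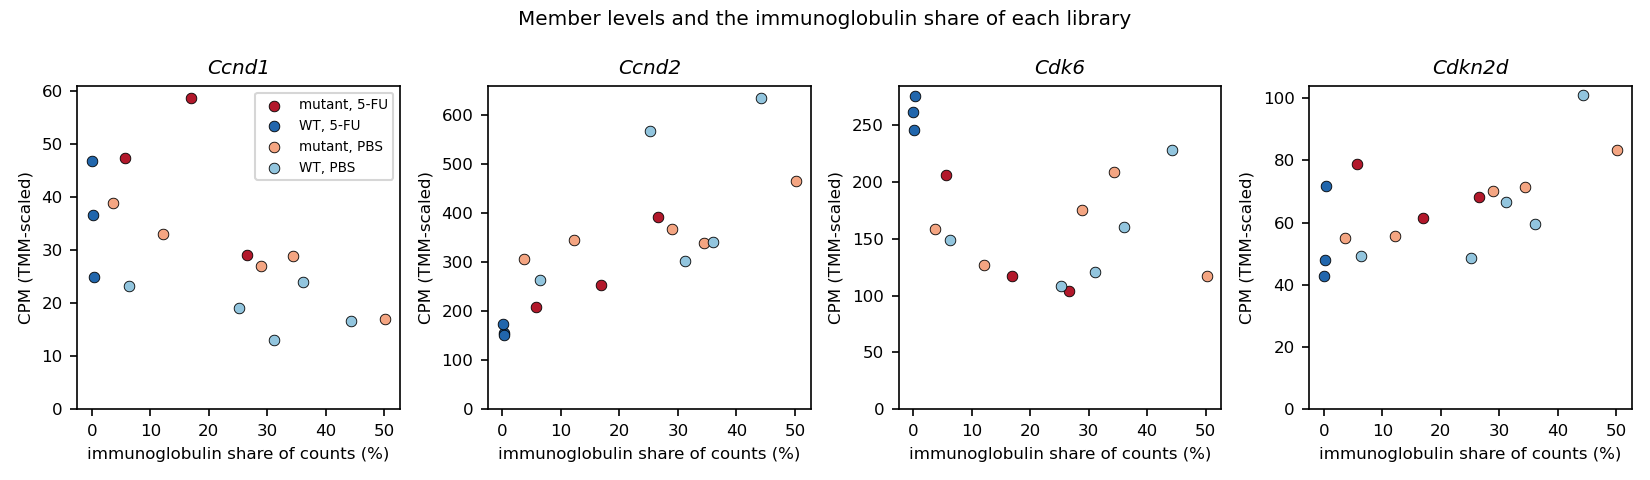
CPM of Ccnd1, Ccnd2, Cdk6 and Cdkn2d in each library (linear axes from 0) against the share of that library's counts in immunoglobulin genes (%), coloured by group. The 3 WT 5-FU libraries sit at 0.039 to 0.332%, where Ccnd2 CPM is lowest and Cdk6 CPM highest. The WT PBS library at 44.243% has the highest Ccnd2 and Cdkn2d. On log2(TPM + 1) Ccnd2 in WT 5-FU over WT PBS differed by 0.12 the other way, or by -0.89 relative to the median of all genes.

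The partners of these genes in the cell cycle were read from lists of E2F and pocket proteins, later cyclins and cycling cells, and all of their calls were in the comparison of 5-FU with PBS in WT, where 5.55% of all genes rose and 9.31% fell. Of 13 pocket protein and E2F genes 3 rose and 0 fell: E2f7 (1.70 ± 0.36, log2) and E2f8 (1.50 ± 0.37), repressors among the E2F factors, and E2f3 (0.95 ± 0.30), an activator. The median of that list was 0.66, against -0.11 over all genes. E and A cyclins with their kinases and helpers had 8 of 9 members tested, of which 2 rose and 0 fell, with a list median of 0.40. Those were Skp2 (1.24 ± 0.28), part of the ubiquitin ligase that marks p27 for destruction, and Ccna2 (1.01 ± 0.28), the S-phase cyclin A2. Of 18 genes of cycling cells 6 rose and 0 fell, and their median was 0.98. The 4 with the smallest p were Ccnb2 (1.02 ± 0.20), a mitotic cyclin, Top2a (1.05 ± 0.28), a topoisomerase of dividing cells, Bub1 (1.34 ± 0.36), a spindle checkpoint kinase, and Rrm2 (0.98 ± 0.28), a subunit of ribonucleotide reductase. In 15 of the 18 all WT 5-FU libraries lay above all WT PBS libraries, against 16% of all genes. Mki67, a proliferation marker, averaged 78.1 CPM in mutant 5-FU libraries, 134 CPM in WT 5-FU libraries, 80.2 CPM in mutant PBS libraries and 79.8 CPM in WT PBS libraries, at 0.75 ± 0.29 with 5-FU in WT (adjusted p = 0.0814); it was chosen after its values were seen.

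The 3 subunits of the CDK-activating kinase (Cdk7, Ccnh and Mnat1), which phosphorylate CDK4 and other kinases, gave 0 calls in the 5 comparisons. Among 15 genes known to act upstream of the set, 1 rose and 1 fell in WT after 5-FU, a share of 2 in 15 that was near the 14.9% of all genes. Stat5a, a cytokine-activated factor known to drive D cyclins, was at 1.20 ± 0.35 (log2; adjusted p = 0.0315), with 163 CPM in WT 5-FU libraries and 71.2 CPM in WT PBS libraries. Foxo3, a factor known to induce Cdkn1b, was at -1.08 ± 0.31 (adjusted p = 0.0333), with 14.5 CPM in WT 5-FU libraries and 30.6 CPM in WT PBS libraries. Trp53, which encodes the p53 that acts on Cdkn1a, was at 0.21 ± 0.18 there, and Mdm2, another p53 target, at -0.08 ± 0.27, neither past the threshold; this pair was also chosen after its values were seen. In the 4 other comparisons none of these lists had a call. Of the 18 genes of cycling cells, 15 were below 0 for mutant against WT after 5-FU, with a median of -0.49. For the interaction 16 were below 0, with a median of -0.61. The median over all genes was 0.07 in both. Under PBS 17 of the 18 were above 0 in the mutant (median 0.12), and 15 were above 0 for 5-FU in the mutant (median 0.26). These directions were not tested.

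Across the 16 libraries, log2 CPM of Ccnd2 correlated with that of Cdkn1b (Pearson r = 0.78) and ran against Ccnd3 (r = -0.61), Ccnd1 (r = -0.57) and Cdk6 (r = -0.56). Among 10023 genes, those most like Ccnd2 were Dnajb9 (r = 0.94), a chaperone gene of the endoplasmic reticulum, Trib1 (r = 0.93), a pseudokinase gene, and Lime1 (r = 0.92). Those most like Ccnd1 were Tmem98 (r = 0.87), Aunip (r = 0.87) and Bora (r = 0.86), the last an activator of mitotic kinases. These coefficients describe 16 libraries that also share their scaling and differ in immunoglobulin share.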

How the data were processed

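RNA-seq tables of 16 mouse LSK libraries were used. Per the submitters' processing notes, FastQC 0.11.2 and RSEM 1.3.1 with mm10/GRCm38 were used by the authors; the aligner and annotation release were not given in the sources used here. The kits were RNeasy Micro for RNA and NuGEN Ovation Ultralow for libraries, per the labels' protocols. Per the file headers, the authors deposited expected counts (RSEM estimates, not scaled to the library), TPM (scaled to effective length and to a fixed total), FPKM (used in a check: rescaled, it gave the TPM), gene length and effective length.

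Expected counts were rounded. Genes were kept by filterByExpr of edgeR 4.0.16 (minimum count 10), libraries scaled by TMM (factors 0.508 to 1.37), and groups compared with edgeR's quasi-likelihood test (robust, 1 mean per group, all 16 libraries), with p adjusted by Benjamini-Hochberg over all genes tested and a threshold of 0.05. SE is the log2 fold change over the square root of F. Printed CPM use the TMM factors. The scripts were tested on simulated data. Alternatives were RLE scaling (R 4.3.3), TMM without immunoglobulin genes, no filter, a replicate block, sample code and immunoglobulin share as covariates, 2 groups only, libraries of like code, each library left out, limma-voom with weights (limma 3.58.1) and DESeq2 1.42.0. Library size alone, log2(TPM + 1) in limma and leaving out 2 immunoglobulin-rich libraries were added after the data were seen. A floor of 3 counts was 0.0798 to 0.272 CPM, and no printed fold rests on a group at 0.

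The 10 genes, the lists, the naming rule and the tests were chosen with earlier results of these data known. The naming rule took all 10 genes, from each list up to 4 called genes by smallest p, and for each called member the 3 named genes with the highest correlation and a mean of at least 5 CPM. Same-numbered mutant and WT PBS libraries deviated together (r = 0.16, 0.24, 0.49, 0.34 and 0.57 for replicates 1 to 5). However, mutant PBS replicate 4 correlated more with WT PBS replicate 5 (r = 0.45) than with WT PBS replicate 4. These correlations therefore do not settle a pairing by number, and the labels do not say what a number marks. In the other comparisons the correlations of same-numbered libraries were lower or near those of other pairs, and they do not settle a pairing either. Gene positions are from GENCODE M21 (GRCm38), matched by gene ID for 53237 of 53342 genes, and promoter sequences from RefSeq (GRCm38.p6).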

Additional observations from a re-analysis of the deposited data

Results flagged for a closer look

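Cdkn1b (p27) in WT PBS replicate 3 stood apart from its group. It had 10.5 CPM, the highest of the 5 WT PBS libraries, and its gap to the next covered 0.813 of the group's range, against a critical value of 0.71 in Dixon's test for 5 samples. That library also had 44.243% of its counts in immunoglobulin genes, the most of its group. Of 20 sets of 5 libraries examined (10 genes in each of the PBS groups) 1 met the criterion, and chance gives about 1 in 20. Without this library the change of Cdkn1b with 5-FU in WT was -0.59 (adjusted p = 0.161, edgeR quasi-likelihood test).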

How the results depend on the processing

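Over 50 fold changes (10 genes in 5 comparisons) and 1110 values under other settings, 967 kept direction and side of the threshold, 24 passed it newly, 16 lost it and 103 changed sign, in 33 of the 50. Of those that changed sign 1 was past the threshold, Cdkn2d on log2(TPM + 1). Of all sign changes, 21 came on log2(TPM + 1) and 11 with library size alone, which both move the median of all genes; relative to that median 7 and 3 values had another sign than with TMM. What made the other changes was not tested.

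For 5-FU against PBS in WT, with 2 of the 10 genes called, the count was 1 with no filter on low counts, 1 with sample code as a covariate, 0 with the immunoglobulin share as a covariate, 0 within 1 code prefix (1 library against 2, too few to bear on stability), 5 with limma-voom, 4 with DESeq2, 1 with library size alone and 5 on log2(TPM + 1), and from 0 to 2 without each library. For mutant against WT after 5-FU, with 0 called, it was 1 (Cdk6) with only the 2 groups compared, 3 with limma-voom and 1 (Cdk6) without the 2 PBS libraries above 40% immunoglobulin. The interaction, with 0 called, had 1 with limma-voom. The shares of all genes called under each of these settings are not given here. A higher or lower count is therefore not read as particular to the 10 genes.

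Where the replicate number was taken as a block, 5 genes were called for 5-FU in WT, 1 (Cdk6) for genotype after 5-FU and 1 (Cdkn2c) for 5-FU in the mutant, against 2, 0 and 0 without it, and no call changed in the other comparisons. In those 3 comparisons the correlations of same-numbered libraries were low. They were 0.01, -0.16 and 0.17 for 5-FU in WT, 0.06, 0.11 and 0.02 for genotype after 5-FU, and 0.06, -0.02 and -0.13 for 5-FU in the mutant. With so few libraries these values do not settle whether the numbers pair libraries. Between genotypes after 5-FU each library correlated best, or as well as with any other, with its own number. For 5-FU in WT and in the mutant not every library did. The shares of all genes called under the block are not given here, so the higher counts are not read as particular to these genes. Under the block the sign turned for Cdkn1c in WT (0.04), and for Cdk4 (-0.00) and Cdkn2d (-0.15) in the mutant.

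The remaining sign changes were these, in log2 units. On log2(TPM + 1), where the medians of all genes were 0.05 and -0.59 between genotypes after PBS and after 5-FU, 1.01 and 0.33 for 5-FU in WT and in the mutant, and -0.68 for the interaction, they were Ccnd2 0.01 for genotype after PBS; Ccnd1 -0.46, Ccnd3 -0.84, Cdk4 -0.90, Cdkn1a -0.57, Cdkn1b -0.18, Cdkn2c -0.67 and Cdkn2d -0.52 for genotype after 5-FU; Ccnd2 0.12, Cdkn1a 0.74, Cdkn1b 0.39, Cdkn1c 1.14, Cdkn2c 0.87 and Cdkn2d 1.23 (adjusted p = 0.0398) for 5-FU in WT; Ccnd2 0.17, Cdk6 0.68 and Cdkn1b 0.23 for 5-FU in the mutant; and Cdkn1a -0.89, Cdkn1b -0.15, Cdkn1c -0.31 and Cdkn2d -0.67 for the interaction. With library size alone, where those medians were 0.02, -0.19, 0.44, 0.22 and -0.23, they were Cdkn1b 0.01 after PBS, Ccnd3 -0.17, Cdk4 -0.07 and Cdkn2c -0.18 between genotypes after 5-FU, Cdkn1c 0.43, Cdkn2c 0.26 and Cdkn2d 0.38 for 5-FU in WT, Cdk6 0.12 and Cdkn1b 0.15 for 5-FU in the mutant, and Cdkn1a -0.01 and Cdkn2d -0.02 for the interaction. For genotype after PBS, Cdkn1b, at -0.00, was 0.00 with RLE scaling, with TMM without immunoglobulin genes, with 2 groups only and with DESeq2, 0.02 with the immunoglobulin covariate, 0.04 with limma-voom and 0.02 without the 2 immunoglobulin-rich libraries.

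With sample code as a covariate, Cdkn2c was -0.13 and Cdkn2d -0.17 between genotypes after 5-FU, Cdkn2d was 0.09 for 5-FU in WT, Cdk4 was -0.01 and Cdkn2d -0.15 for 5-FU in the mutant, and Ccnd1 was 0.15 and Cdkn2d -0.24 for the interaction. Among libraries of like code, Cdkn2d was 0.13 in WT, and Cdk4 was -0.08 and Cdkn2d -0.14 in the mutant; within 1 prefix they were 0.55, -0.21 and -0.03. With the immunoglobulin covariate, Ccnd3 was -0.04 and Cdkn2d 0.20 for 5-FU in WT, and Ccnd1 was 0.11 and Ccnd3 0.08 for the interaction. With limma-voom, Ccnd3 was -0.01 for 5-FU in WT and 0.14 for the interaction, where Cdkn1a was -0.01. Without the 2 immunoglobulin-rich libraries, Cdk4 was -0.05 for 5-FU in the mutant.

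Without each library in turn, values that crossed 0 ranged, for genotype after PBS, from -0.08 to 0.22 for Cdk6, -0.10 to 0.23 for Cdkn1a, -0.10 to 0.13 for Cdkn1b and -0.04 to 0.25 for Cdkn2d. Between genotypes after 5-FU they ranged from -0.09 to 0.22 for Ccnd3 and -0.18 to 0.30 for Cdkn2c, and for 5-FU in WT from -0.21 to 0.05 for Cdkn1c. For 5-FU in the mutant they ranged from -0.05 to 0.27 for Ccnd3, -0.05 to 0.16 for Cdk4, -0.51 to 0.04 for Cdk6, -0.37 to 0.10 for Cdkn1b, -0.13 to 0.75 for Cdkn1c and -0.05 to 0.13 for Cdkn2d. For the interaction they ranged from -0.19 to 0.12 for Ccnd3, -0.15 to 0.07 for Cdk4 and -0.07 to 0.82 for Cdkn1c. Counts of 105 to 22360 per library stood behind the 10 genes apart from Cdkn1c, whose lowest was 74 in WT PBS replicate 3; rounding and counting error at that depth were not separated from the spread between libraries.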
